A study of Mus musculus and Rattus norvegicus with 28 samples.

Results

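The regions described here ranked within a common limit in both E18.5 ATAC-seq peak lists of mouse cardiomyocytes and outside it in every neonatal list. They were selected on the deposited peak ranks. Each of the 8 peak lists was cut to its 13149 peaks of highest −log10 q, the number of peaks in the shortest list, and overlapping peaks were merged into 34318 regions. Of these, 613 held a kept peak in both E18.5 libraries and in none of the 6 neonatal libraries. The number rested on having 2 libraries per time point, and was 2930 without E18.5 replicate 1, 2293 without E18.5 replicate 2 and 1007 without P7 replicate 2. The presence, rank, q and fold enrichment of their peaks are therefore given as a description, with no test.

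The libraries came from male and female C57BL/6 mice at embryonic day 18.5 (E18.5) and at postnatal days 1, 3 and 7 (P1, P3 and P7), with no transgene or treatment named in the labels. Cardiomyocytes were isolated from left ventricles by enzymatic digestion, and preplating was used to remove cells that attach quickly, such as fibroblasts. Each time point had 2 ATAC-seq libraries, each from 50000 cells, and 2 RNA-seq libraries. The study's methods call the libraries of a time point biological replicates, and neither they nor the labels say whether these came from separate animals or pools, so p-values measure the spread between these samples.

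ATAC-seq uses a transposase that inserts adapters into open DNA, so that reads pile up at promoters, where transcription starts, and at enhancers, which act on promoters from a distance. In heart muscle, MEF2 factors bind A/T-rich elements at genes for contractile proteins, GATA and TEAD factors share many cardiac enhancers, and AP1 (Fos and Jun dimers) binds many enhancers that open in response to stimuli. Around birth, cardiomyocytes leave the cell cycle, exchange fetal for adult contractile proteins and turn from glucose towards fatty acids as fuel.

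Sequences at 6 of the 8 genes with the largest falls of expression from E18.5 to P7 among the genes nearest to these regions are shown first, because these regions shared a MEF2 consensus match. All are read 5′ to 3′ on the + strand of mm10 from the RefSeq GRCm38.p6 genome. Each window of 200 bases is centred on the peak summit in E18.5 replicate 1, and Myl2 and Cox6a2 are given as the match with 10 bases on either side. Capitals mark the MEF2 match and, in Nppb only, also the nuclear receptor half-site AGGTCA.
Myl2, chr5:122100915-122100944: ggtcatggggTTATTTTTAAccccagggga
Cox6a2, chr7:128206396-128206425: acatggatggCTATTTTTAGgggctttctc
Csrp3, chr7:48848255-48848454: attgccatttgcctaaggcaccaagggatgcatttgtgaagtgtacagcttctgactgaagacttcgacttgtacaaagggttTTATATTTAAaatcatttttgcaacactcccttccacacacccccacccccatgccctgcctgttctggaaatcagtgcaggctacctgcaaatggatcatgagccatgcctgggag
Rnf207, chr4:152317829-152318028: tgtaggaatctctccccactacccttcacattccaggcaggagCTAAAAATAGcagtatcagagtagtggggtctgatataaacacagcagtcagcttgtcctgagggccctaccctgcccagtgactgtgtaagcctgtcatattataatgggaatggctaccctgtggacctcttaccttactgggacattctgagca
Rbm20, first region, chr19:53697724-53697923: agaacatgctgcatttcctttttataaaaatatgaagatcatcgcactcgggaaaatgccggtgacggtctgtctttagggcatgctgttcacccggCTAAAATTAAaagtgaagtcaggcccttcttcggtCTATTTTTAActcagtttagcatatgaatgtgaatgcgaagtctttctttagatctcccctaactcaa
Rbm20, second region, chr19:53716562-53716761: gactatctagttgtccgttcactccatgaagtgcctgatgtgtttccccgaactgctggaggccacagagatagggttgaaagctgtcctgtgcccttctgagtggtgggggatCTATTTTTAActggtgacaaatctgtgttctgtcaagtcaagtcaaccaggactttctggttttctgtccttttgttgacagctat
Nppb, chr4:147963774-147963973: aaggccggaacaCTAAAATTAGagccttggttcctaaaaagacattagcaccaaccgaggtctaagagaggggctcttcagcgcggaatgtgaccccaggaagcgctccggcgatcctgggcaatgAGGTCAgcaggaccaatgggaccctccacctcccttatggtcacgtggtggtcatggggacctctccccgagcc

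The regions lay close to the start site at Myl2, Cox6a2, Csrp3 and Rnf207, whose region midpoints were 6, 84, 259 and 760 bp from a RefSeq start site. Both Rbm20 regions were intronic, and the Nppb region lay 21876 bp from the start site in intergenic sequence. The match was in the printed 200 bases for Csrp3, Rnf207, both Rbm20 regions and Nppb. The other 3 windows are shown because they carry other sequence features of high-ranking or rising members.
Eif2ak3, chr6:70872211-70872410: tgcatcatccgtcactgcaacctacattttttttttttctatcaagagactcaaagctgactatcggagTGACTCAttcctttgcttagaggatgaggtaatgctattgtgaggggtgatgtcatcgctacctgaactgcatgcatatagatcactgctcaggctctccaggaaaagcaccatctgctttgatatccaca
Tsku, chr7:98347664-98347863: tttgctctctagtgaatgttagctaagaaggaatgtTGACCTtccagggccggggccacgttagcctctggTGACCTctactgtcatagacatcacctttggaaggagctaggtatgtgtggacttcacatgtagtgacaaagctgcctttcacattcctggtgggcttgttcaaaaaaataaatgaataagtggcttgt
Mid1, chrX:170005582-170005781: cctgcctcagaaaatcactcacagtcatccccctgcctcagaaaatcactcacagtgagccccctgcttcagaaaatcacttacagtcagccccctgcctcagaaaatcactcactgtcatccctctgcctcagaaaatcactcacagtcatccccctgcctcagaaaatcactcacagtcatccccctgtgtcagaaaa

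Capitals mark the AP1 consensus (TGACTCA or TGAGTCA) in the Eif2ak3 window and a pair of half-sites, read on the opposite strand as TGACCT, in the Tsku window. The Mid1 window holds a tandem repeat, in which 1 word of 12 bases occurs 6 times. A consensus match describes letters only and is not a measured binding site.

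The 8 peak lists differed in length from 13149 to 95257 peaks, so an equal number of peaks reached very different strengths. The −log10 q of the last kept peak was 1.35 and 3.01 at E18.5, then 6.33 and 3.17 at P1, 26.1 and 16.7 at P3, and then 12.2 and 8.94 at P7. The prefixes of the peak names grouped E18.5 replicate 1 with P3 replicate 1 and P7 replicate 1, and E18.5 replicate 2 with both P1 libraries. What the prefixes stand for is not given in the sources used here. In RNA-seq, all 12 cardiomyocyte markers were listed above 0 in every library, but their summed FPKM was 28262 and 36799 at E18.5 and 2418 and 1095 at P7, and 12 of 12 were called lower at P7. Summed over 24 erythroid markers, FPKM was 29137 and 35487 at E18.5 and 50.7 to 104 in the neonatal libraries, and 12 fibroblast markers summed to 484 and 476 at E18.5 and to 2990 and 3727 at P7. In such bulk samples, fewer cells of a type and less RNA per cell cannot be told apart. The part of these markers in the results below was not tested.

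Most of the 613 regions were not absent after birth. A peak was listed in at least 1 full neonatal list for 594 of them, and in none for 19. Members with a peak numbered 281 (45.8%) and 30 (4.89%) in the P1 lists, 544 (88.7%) and 470 (76.7%) in the P3 lists, and 459 (74.9%) and 451 (73.6%) in the P7 lists. The share was thus lowest at P1, where both lists were shorter than at P3 and P7. A peak in all 4 P3 and P7 lists was found at 347 members, 182 of which had none in either P1 list, and 15 members had a peak in all 6 neonatal lists.

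The regions were of middling to low rank already at E18.5. Their median rank was 9427 in E18.5 replicate 1, with a range of 1561 to 13131, and 8812 in replicate 2, with a range of 1087 to 13126. Where a peak was listed after birth, the median rank was 21448 and 16096 at P1, 38494 and 26256 at P3, and then 27185 and 19992 at P7. Members whose rank was at most 2 times the limit numbered 234 and 30 at P1, 114 and 236 at P3, and then 221 and 343 at P7.

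Rank and peak strength did not move together across the lists. The medians that follow cover only the members with a peak in that list. The median −log10 q of the members was 4.93 and 4.71 at E18.5, then 4.29 and 2.53 at P1, 11.6 and 8.93 at P3, and then 6.64 and 6.01 at P7. The median fold enrichment over background was 5.18 and 5.34 at E18.5, then 4.66 and 3.74 at P1, 5.16 and 5.67 at P3, and then 4.27 and 4.10 at P7. At P3, 246 and 269 of the 613 members had a fold enrichment at or above their own E18.5 mean. The numbers were 57 and 16 at P7 and 42 and 0 at P1. Where listed, the P3 peaks at these regions thus had a median fold enrichment about that at E18.5. Other P3 peaks ranked above them, and 69 and 143 members had no listed P3 peak.

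**Figure D1:**
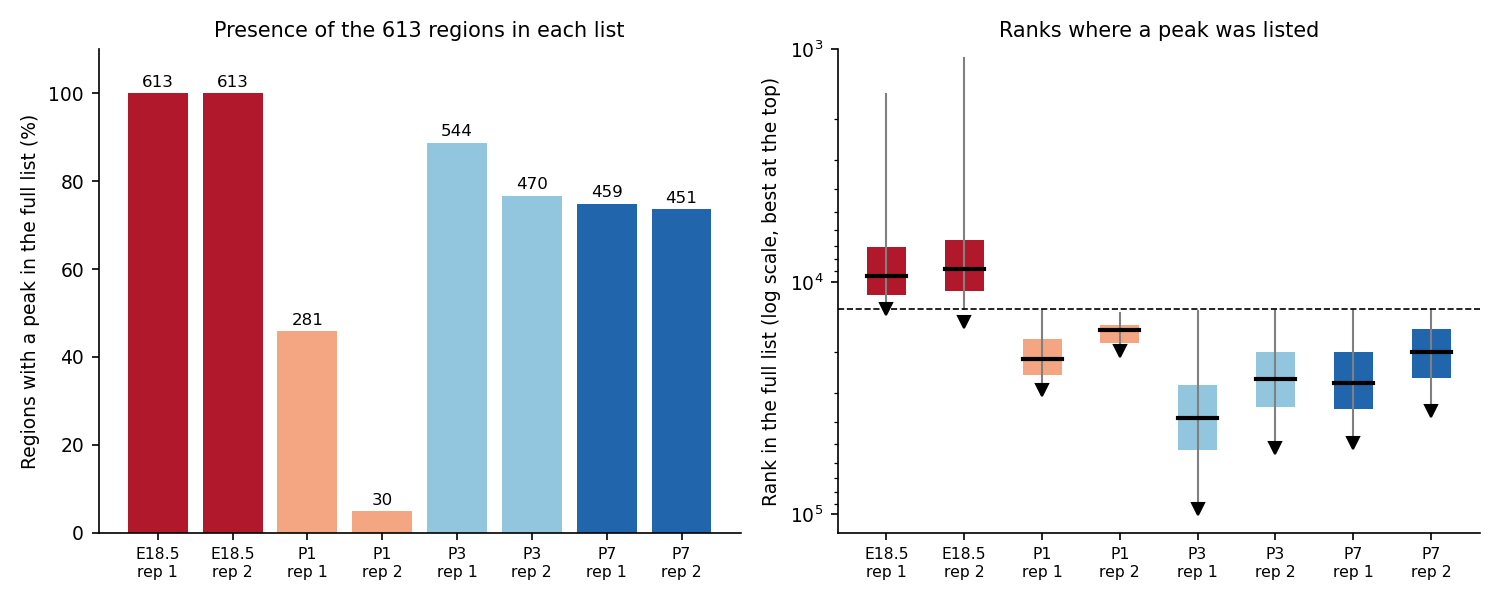
Left, percent of the 613 regions with a peak in each full list, and right, their ranks in it (log scale, best at the top), for the 2 libraries of each time point. All regions are in both E18.5 lists by the rule, and the lowest shares are the 45.8% and 4.89% of the P1 libraries.

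At P3 and P7, absence from the full lists was more frequent away from promoters. Promoter members are those centred no more than 2.5 kb from a protein-coding start site in RefSeq. Both P3 lists held a peak at 86.7% of promoter members and 59.8% of the others, and both P7 lists at 76.8% and 37.1%. At P1 the shares were 3.59% and 4.38%. The promoter share was 15.8% among the 19 members with no neonatal peak, 28.9% among the 38 with a peak in 1 neonatal list, and 73.3% among the 15 with a peak in all 6. Such persistence below the limit was seen for the rule at the other time points too: a peak in a full list of another time point was found at 96.9% of the E18.5 members, 58.9% of the 710 regions chosen in the same way for P1, 99.0% of 517 for P3 and 100.0% of 84 for P7.

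The limit of the rule ran through a continuous range of ranks. Just inside it, the Haghl region (chr17:25785258-25785662) ranked 13159 in P7 replicate 2 and the Clasp2 region ranked 13161 in P1 replicate 1. Just outside, the Rcor3 region was lost to the rule by rank 13142 in P1 replicate 1, and the Ncoa3 region by rank 13141 in P7 replicate 1. At the E18.5 end, the Nrtn region ranked 13131 in replicate 1 and the Adsl region 13126 in replicate 2. Regions kept in both E18.5 libraries and in a single neonatal library numbered 735, more than the members themselves.

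The 19 regions with no peak in any neonatal list had as nearest genes Tns1, Wscd1, Cyth1, Enpp7, Dact1, Osmr, Egflam, Cldn5, Nrtn, Sfmbt2, Pmepa1, Cypt12, Cldn11, Gm11487, Rnf207, Palld, Ces5a, Sesn3 and Mageb4. Of these, 3 were promoter regions, those of Cldn5 and Cldn11, which encode tight junction proteins, and of Rnf207, a ubiquitin ligase gene linked to cardiac repolarization. Their midpoints lay 68, 67 and 760 bp from the start site. The median E18.5 ranks of the 19 were 11360 and 9172, weaker than those of all members. Leaving out a library moved this count of 19 to 1141 (E18.5 replicate 1), 195 (E18.5 replicate 2), 34 (P1 replicate 1), 32 (P3 replicate 1) or 29 (P7 replicate 2). Of their 11 tested nearest genes, 3 were called lower and 2 higher at P7, by the calls defined with the expression results, where the shares over all genes were 12.3% and 15.4%.

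By position, 362 of the 613 regions (59.1%, Wilson 95% interval 55.1 to 62.9, counting error only) were promoter regions. The share was 26.5% without E18.5 replicate 1, 17.4% when all deposited peaks were kept and 79.7% when 6574 peaks per library were kept, and the comparison groups were not recomputed under these settings. The 59.1% lay above the 35.4% of all 34318 regions and the 48.3% of the 19625 regions kept in at least 2 libraries. It lay below the 77.6% of the 8191 regions kept in both E18.5 libraries and at least 1 neonatal library, and below the 81.5% of the 3187 regions kept in all 8. Regions chosen in the same way for P1, P3 and P7 had promoter shares of 7.61%, 7.54% and 40.5%. The median width of the members, which merge peaks of the E18.5 libraries only, was 395 bp (184 to 1091). It was 836 bp for regions kept in both E18.5 and at least 1 neonatal library. Regions kept in all 8 had 923 bp and all regions 471 bp. Windows of fixed size around the midpoint, used below for base composition and motifs, thus cover less of the wider regions.

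**Figure D2:**
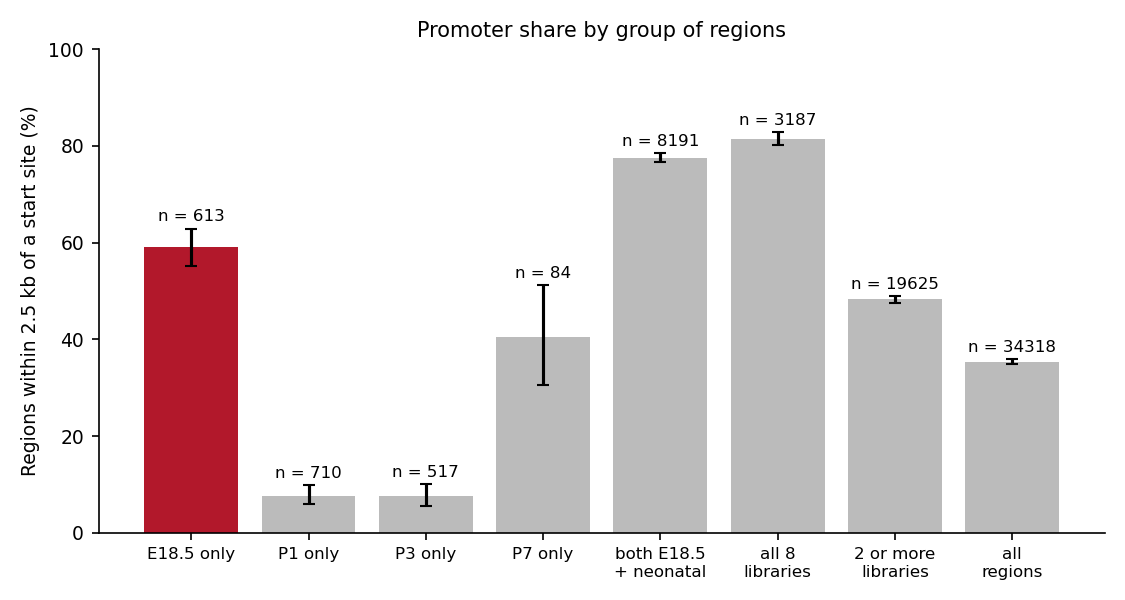
Percent of regions with a midpoint within 2.5 kb of a RefSeq protein-coding start site, by group of regions, with Wilson 95% intervals for counting error. The E18.5-specific regions (59.1%) sit between all regions (35.4%) and the regions kept in all 8 libraries (81.5%).

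Promoter members centred on the start site, with a median distance of 128 bp, and 315 members lay within 500 bp. Of the promoter members, 229 had a midpoint downstream and 132 upstream of the start. The other 251 members lay at a median of 30109 bp, and 88 members were over 50 kb from any start site. By midpoint, 207 members were intronic, 189 intergenic, 165 in untranslated exons and 52 in coding exons. The members had 595 distinct nearest genes, 17 of which had at least 2 members. Pmepa1, an inhibitor of TGF-beta signalling, had 3, at chr2:173274957-173275694, chr2:173307213-173307643 and chr2:173349528-173349772.

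GC content was close to that of regions kept in both E18.5 and at least 1 neonatal library, whereas CpG ratios were lower. Away from promoters, GC content and CpG ratio were above those of all regions. In 400 bp around the midpoint, promoter members had a median GC content of 66.8% and a median observed over expected CpG ratio of 0.774, against 66.2% and 0.828 for promoter regions kept in both E18.5 and at least 1 neonatal library. All promoter regions had 64.8% and 0.785. Members away from promoters had 53.5% GC and a CpG ratio of 0.28. Such regions kept in both E18.5 and at least 1 neonatal library had 54.2% and 0.304. All non-promoter regions had 50.2% and 0.215, and those chosen for P3 had 47.2% and 0.187. Tandem repeats were few: 2.77% of members had a 12-base word in at least 4 copies in 200 bp around the midpoint, against 3.8% of regions kept in both E18.5 and at least 1 neonatal library, 16.7% of all regions and 77.1% of the regions chosen for P1. Around the E18.5 replicate 1 summit, 20 members had such a word, with most copies at Epha3 (39), Adcy5 (20), Wscd1 (20) and Podxl (19).

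MEF2 matches were more frequent at the members than at regions also kept in at least 1 neonatal library, at promoters and away from them. Matches to 16 consensus sequences were counted on both strands in 400 bp around the midpoint, separately for promoter and other regions, with no test. The members had a median width of 395 bp and the regions also kept in at least 1 neonatal library 836 bp. The window thus covered less of the latter. A MEF2 match was found at 40 of the 251 members away from promoters (15.9%, Wilson 95% interval 11.9 to 21.0). The share was 6.65% of the 1804 such regions kept in both E18.5 and at least 1 neonatal library, 4.27% of all non-promoter regions, 2.16% of those chosen for P1 and 4.60% of those chosen for P3. At promoters the share was 4.42% of members, against 0.85% of promoters kept in both E18.5 and at least 1 neonatal library and 1.70% of all promoter regions.

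Other consensus sequences also had higher shares among members away from promoters than among regions kept in both E18.5 and at least 1 neonatal library. These were GATA, TEAD, the half-site, ERR, YY1, T-box, CACCC and the E-box. The E-box was at 32.3% against 30.5%, CACCC at 42.2% against 37.9%, and T-box at 2.39% (6 members) against 1.16%. For these, the Wilson 95% interval of the members held the other share. YY1 was at 3.98%, against 1.39%, and at 3.58% of all non-promoter regions. The GATA consensus (these letters with A or T before and A or G after) was found at 50.6% of these members, against 35.8% of regions kept in both E18.5 and at least 1 neonatal library and 37.3% of all. TEAD (GGAATG) was found at 37.8%, against 30.2% and 26.9%. The half-site AGGTCA was found at 32.7%, against 24.9% and 21.0%. The ERR consensus TCAAGGTCA, which contains the half-site, was found at 6 members (2.39%), against 0.499% and 0.731%. The consensus of serum response factor (SRF), a cardiac and smooth muscle regulator, was found at 5 members (1.99%), against 2.49% and 1.86%.

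AP1 was found at 17.1% of members away from promoters, against 23.7% of regions kept in both E18.5 and at least 1 neonatal library, 23.3% of all such regions, 3.08% of those chosen for P1 and 38.1% of those chosen for P3. At promoters it was found at 5.25% of members, 3.81% of regions kept in both E18.5 and at least 1 neonatal library and 6.21% of all. For the regions chosen for P3, GATA was found at 56.3% and TEAD at 41.0%, both above their shares at the members. At promoters, CCAAT was found at 29.0% of members, 37.4% of all promoter regions and 53.6% of promoters kept in all 8 libraries. The windows hold few matches by count, and windows of 200 bp hold fewer by construction. In these, 11.2% of members away from promoters had a MEF2 match and 10.4% an AP1 match. Such regions kept in both E18.5 and at least 1 neonatal library had 3.55% and 15.5%.

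**Figure D3:**
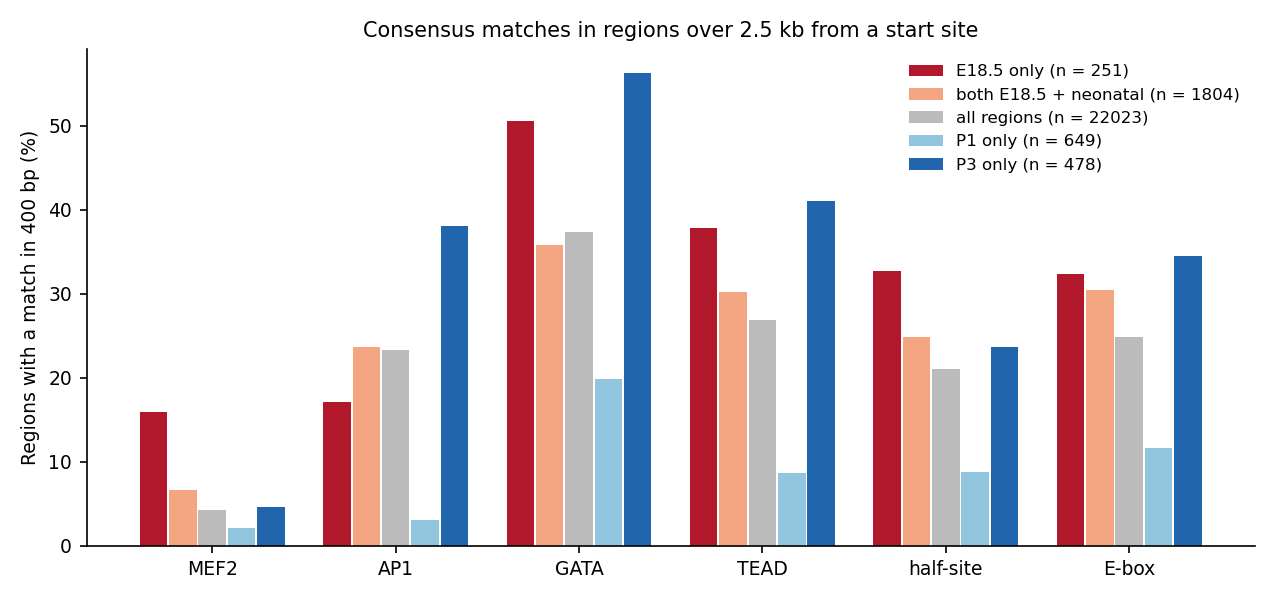
Percent of regions over 2.5 kb from a start site with at least 1 match in 400 bp around the midpoint, by consensus and group of regions, with no error bars. For MEF2 the E18.5-specific regions stand highest at 15.9%, whereas for AP1 they stand at 17.1%, below the regions chosen for P3 (38.1%).

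Expression was not used by the rule, so the genes nearest to the members were tested. Of the 595 nearest genes, 587 were matched to the RNA-seq annotation, and 498 passed the filter (FPKM of 1 or more in 2 or more libraries) and were tested. FPKM scales fragments by transcript length and by the library's aligned reads, and fold changes are on the log2(FPKM + 1) scale, which understates the change of low genes. Calls needed an adjusted p under 0.05 by limma across all genes and a log2 fold change beyond 1 in either direction. The filter can keep a gene for its high level in 1 time point only, so the counts below are read against the same counts over all 13979 genes tested.

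At P1, 38 of the 498 genes (7.63%) were called lower and 54 (10.8%) higher than at E18.5, beside 6.06% and 10.1% of all genes. At P3, 58 (11.6%) were called lower and 58 (11.6%) higher, beside 8.88% and 13.0%. At P7, 90 (18.1%) were called lower and 61 (12.2%) higher, beside 12.3% and 15.4%. The P1 shares were thus near the background, and by P7 lower calls exceeded it and higher calls fell short of it. The median log2 fold change of these genes was 0.08, 0.03 and -0.04 at P1, P3 and P7, and that of all genes 0.15, 0.16 and 0.14.

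The balance of lower and higher calls depended on the scaling. With TPM the median over all genes moved to 0.38, 0.41 and 0.40, and with median-of-ratios size factors to 0.04, 0.04 and 0.05. Lower calls made up 59.6% of all calls at P7 with FPKM, 47.0% with TPM (87 lower and 98 higher) and 63.7% with size factors. At P1 they made up 41.3%, 25.8% and 54.3%, and at P3, where FPKM gave equal numbers, 34.8% with TPM and 57.5% with size factors. Relative to all genes on the same scale the order at P7 held: with TPM, 17.5% of the members' genes were lower and 19.7% higher, beside 11.3% and 24.0%.

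Lower calls were more frequent for regions away from promoters. At P7, 44 of 193 genes of non-promoter members (22.8%) were called lower and 24 (12.4%) higher, and 48 of 311 genes of promoter members (15.4%) lower and 38 (12.2%) higher. Non-promoter regions kept in both E18.5 and at least 1 neonatal library had 18.3% lower and 16.5% higher, and the promoter regions of the same group 10.1% and 13.0%. Regions chosen for P1 had 18.6% lower, a share like the 18.1% of all members, and 17.3% higher. Those chosen for P3 had 9.83% lower and 28.0% higher. Within 50 kb of a start site, 31 of 127 genes of non-promoter members (24.4%) were called lower and 12 (9.45%) higher.

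**Figure D4:**
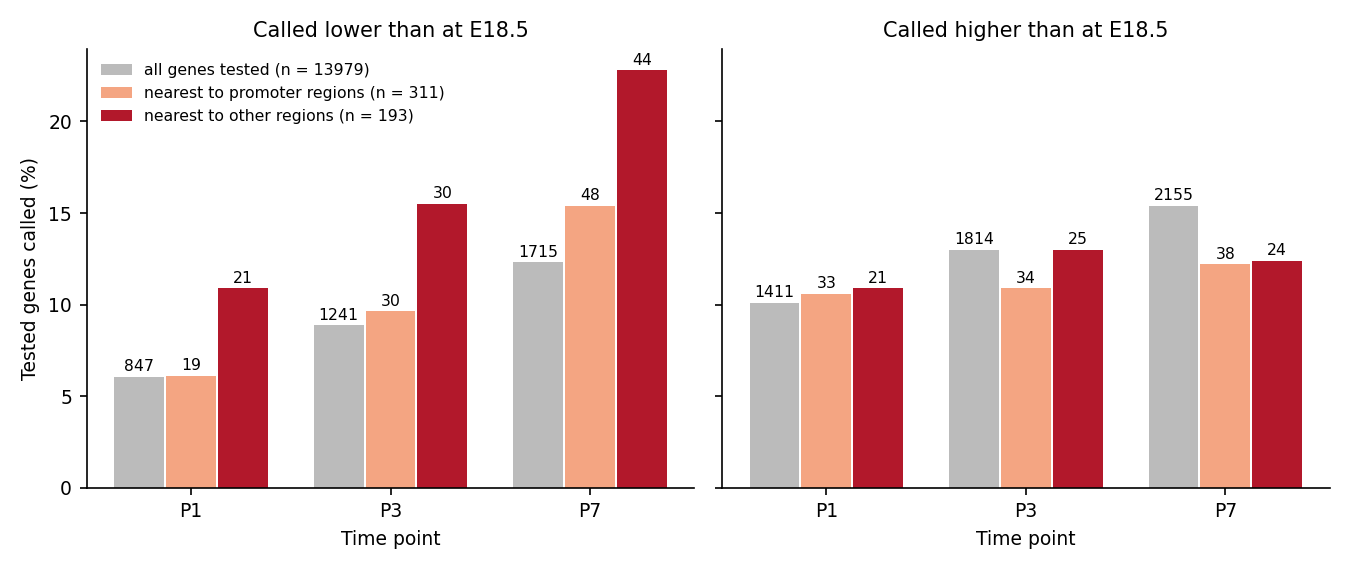
Percent of tested genes called lower (left) or higher (right) in the P1, P3 and P7 libraries relative to E18.5, for genes nearest to promoter members, to other members and for all genes tested. At P7 the lower calls are 15.4%, 22.8% and 12.3% in that order.

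Lower calls were more frequent at members that were missing from a P3 or P7 list. Of the 303 tested genes of members with a peak in all 4 of those lists, 34 (11.2%) were called lower at P7 and 40 (13.2%) higher. Of the 202 genes of the remaining members, 58 (28.7%) were called lower and 23 (11.4%) higher. The same order was seen at promoter members, with 10.6% of 235 and 31.2% of 77 genes called lower, and at other members, with 13.0% of 69 and 27.6% of 127. The members of these 2 groups differ in their peaks in the lists that the rule used, and no test was made between them. At the 74 members with no peak in either P7 list, 11 of 54 tested genes (20.4%) were called lower at P7 and 7 (13.0%) higher. These shares were near the 18.1% and 12.2% of all members, so lower calls were not most frequent where both P7 peaks were missing. Genes at members with a MEF2 match were called lower at P7 in 12 of 42 (28.6%), against 79 of 460 (17.2%) at members without one, and 4 genes with both kinds counted in each. This gap lay at promoter members, with 6 of 15 genes (40.0%) called lower with a match and 43 of 297 (14.5%) without. At other members the shares were 6 of 27 (22.2%) and 38 of 167 (22.8%).

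The 8 largest falls to P7 were those of Myl2, Cited1, Csrp3, Cox6a2, Fosb, Rnf207, Rbm20 and Nppb. The median log2 fold change to P7 was -4.26 over 12 cardiomyocyte markers and -3.95 over 36 sarcomere and Z-disc genes, with Myl2 in both lists. Whether the falls named here are linked to these was not tested. Myl2 encodes the ventricular regulatory myosin light chain, and its region (chr5:122100825-122101146) covers the start site. Its FPKM was 5267 and 6835 at E18.5, then 1385 and 2091 at P1, 900 and 650 at P3, and then 198 and 79.0 at P7. The libraries of each time point lay below those of the one before, with no overlap. Myl2 fell by 5.57 ± 0.40 (SE, n = 2 per time point) on the log2 scale from E18.5 to P7 (adjusted p = 2.85e-05). Its ATAC-seq peak ranked 8899 and 7709 at E18.5, 27170 in P1 replicate 1, 93112 in P3 replicate 1 and 28931 in P7 replicate 2, and the other neonatal lists held none.

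Csrp3, a Z-disc protein that senses stretch, had FPKM of 605 and 927 at E18.5, then 130 and 182 at P1, 82.3 and 73.6 at P3, and then 21.8 and 12.6 at P7. It fell by 5.41 ± 0.29 to P7 (adjusted p = 9.18e-06), again without overlap between the time points. Its promoter region (chr7:48848052-48848567) had a peak in P1 replicate 1 and P7 replicate 2 alone after birth. Cox6a2, the heart and muscle form of a cytochrome c oxidase subunit, had FPKM of 749 and 913 at E18.5, then 180 and 263 at P1, 153 and 109 at P3, and then 36.3 and 9.12 at P7. It fell by 5.41 ± 0.52 to P7 (adjusted p = 8.38e-05). Its region (chr7:128206025-128206538) had only 1 neonatal peak, at rank 24672 in P7 replicate 2.

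Rnf207 had FPKM of 27.7 and 48.2 at E18.5, then 12.1 and 28.6 at P1, 5.74 and 8.44 at P3, and then 2.0 and 0.563 at P7. The E18.5 and P1 libraries overlapped, and from P3 on all values lay below. It fell by 4.12 ± 0.46 to P7 (adjusted p = 0.000168), and its promoter region (chr4:152317675-152318054) ranked 12732 and 3021 at E18.5 and was in no neonatal list. Rbm20, a splicing factor that acts on titin transcripts, had FPKM of 51.2 and 38.0 at E18.5, then 21.1 and 32.5 at P1, 11.4 and 13.0 at P3, and then 3.26 and 0.953 at P7. It fell by 3.97 ± 0.36 to P7 (adjusted p = 6.45e-05), and both of its regions lay in introns and carried a MEF2 match.

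Nppb, the gene for B-type natriuretic peptide, had FPKM of 295 and 450 at E18.5, then 188 and 228 at P1, 132 and 40.9 at P3, and then 37.9 and 14.1 at P7. It fell by 3.91 ± 0.57 to P7 (adjusted p = 0.000675), and no P7 library reached the lowest E18.5 or P1 value. Its region (chr4:147963712-147964108) had peaks at rank 23908 in P1 replicate 1 and 30477 in P7 replicate 2.

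The other 2 of the 8 largest falls had no MEF2 match. Cited1, a transcriptional coregulator, had FPKM of 85.6 and 106 at E18.5, then 11.8 and 17.6 at P1, 3.72 and 2.81 at P3, and then 1.46 and 0.782 at P7, and fell by 5.52 ± 0.24 (adjusted p = 5.34e-06). Its promoter region (chrX:102251967-102252282) nevertheless had a peak in all 6 neonatal lists, at ranks of 15354 to 24011. Fosb, an AP1 subunit, had FPKM of 41.5 and 65.4 at E18.5 and 0.309 to 1.40 in the neonatal libraries, so that its whole fall lay between E18.5 and P1 (4.78 ± 0.27, adjusted p = 3.66e-05). Of the 9 members at these 8 genes, 7 carried a MEF2 match, whereas 0 of the 6 members at the 6 genes with the largest rises did. Over all members the share was 9.14%. These genes were picked for the largest changes. Of all tested genes at members with a MEF2 match, 4 of 42 (9.52%) were called higher at P7. At members without one the number was 58 of 460 (12.6%).

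**Figure D5:**
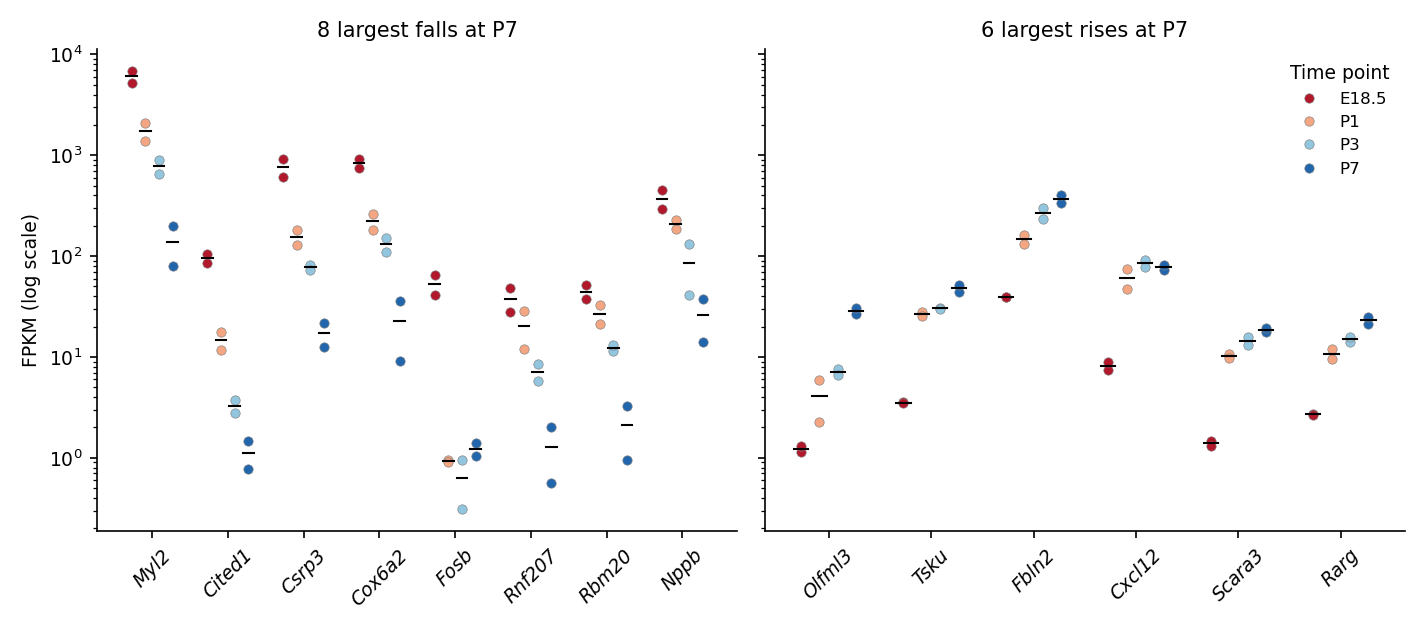
FPKM (log scale) of the genes with the largest falls (left) and largest rises (right) from E18.5 to P7 among genes nearest to the members, with a point for each of the 2 libraries per time point and a bar at their mean. The P7 points of Myl2 (198 and 79.0) lie below all others of that gene, and those of Tsku (43.8 and 52.2) above all others.

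The 6 largest rises to P7 were those of Olfml3, Tsku, Fbln2, Cxcl12, Scara3 and Rarg. Olfml3, an extracellular glycoprotein, had FPKM of 1.14 and 1.32 at E18.5, then 5.96 and 2.29 at P1, 7.60 and 6.65 at P3, and then 26.5 and 30.7 at P7. It rose by 3.73 ± 0.31 to P7 (adjusted p = 4.49e-05) with no overlap between E18.5 and any neonatal library. Tsku, a secreted proteoglycan, had FPKM of 3.55 and 3.47 at E18.5, then 27.8 and 25.5 at P1, at most 30.8 at P3, and then 43.8 and 52.2 at P7. It rose by 3.44 ± 0.13 to P7 (adjusted p = 2.93e-06), most of it by P1 (2.61 ± 0.13). Its region (chr7:98347642-98347853) was 13487 bp from the start site and had 1 neonatal peak, at rank 41933 in P3 replicate 1.

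Fbln2, a matrix protein of elastic fibres, had FPKM of 39.1 and 39.2 at E18.5, then 163 and 131 at P1, 235 and 300 at P3, and then 336 and 408 at P7, and rose by 3.21 ± 0.17 to P7 (adjusted p = 8.71e-06). Cxcl12, a chemokine, had 7.51 and 8.89 at E18.5 and 47.6 to 91.9 in the neonatal libraries, and rose by 3.10 ± 0.21 to P7 (adjusted p = 2.24e-05). Its region lay 222063 bp from the start site. Scara3, a scavenger receptor family member, rose by 3.03 ± 0.15 (adjusted p = 8.35e-06), and Rarg, a retinoic acid receptor, by 2.71 ± 0.16 (adjusted p = 1.41e-05). These rises went with the higher fibroblast marker sum at P7 given above, and whether the 2 are linked was not tested.

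At P1, the largest falls were those of Fosb, Cldn5, Cited1 and Igf2. Cldn5, a tight junction gene of endothelial cells, had FPKM of 85.2 and 41.1 at E18.5, then 1.41 and 1.20 at P1, 2.5 and 3.4 at P3, and then 7.1 and 8.14 at P7. It fell by 4.71 ± 0.31 to P1 (adjusted p = 5.48e-05). The summed FPKM of 12 endothelial markers, Cldn5 included, was 603 and 338 at E18.5 and 463 and 423 at P1. Their median FPKM was 45.2 and 27.9 at E18.5 and 22.4 and 23.3 at P1. Of the 12 markers, 3 were called lower and 1 higher at P1. Of the 2 Cldn5 regions, the promoter region (chr16:18776674-18776883) had no neonatal peak. Igf2, a fetal growth factor, had FPKM of 102 and 309 at E18.5 and 22.5 and 38.5 at P1, and fell by 2.55 ± 0.51 (adjusted p = 0.00565). Its E18.5 libraries differed widely, and all neonatal values lay below both.

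The largest rises at P1 were those of Cxcl12 (2.72 ± 0.21), Tsku, Ptgs1 and Fam110c. Ptgs1, which encodes the constitutive cyclooxygenase, had FPKM of 10.2 and 9.78 at E18.5 and 54.7 and 53.4 at P1, and rose by 2.32 ± 0.14 (adjusted p = 4.13e-05). Fam110c had 0.469 and 0.593 at E18.5 and 5.25 and 7.90 at P1, and rose by 2.29 ± 0.31 (adjusted p = 0.000947). Their regions lay 64846 and 71541 bp from the start sites. Pmepa1, with 3 members, had FPKM of 10.4 and 8.76 at E18.5 and 27.4 and 31.1 at P7 and rose by 1.52 ± 0.14 to P7 (adjusted p = 6.45e-05).

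Among gene lists of heart function, few genes were nearest to a member. Of 36 sarcomere and Z-disc genes, 34 were called lower at P7 and 1 higher, and 3 were nearest to a member, Myl2, Csrp3 and Ttn, the giant elastic protein titin. Ttn fell by 3.66 ± 0.30 to P7 (adjusted p = 4.44e-05), with FPKM of 15.5 and 19.6 at E18.5 and 0.626 and 0.310 at P7. Of 25 tested calcium and ion channel genes, 19 were called lower and 0 higher at P7. The members' genes among them were Cacnb2, a calcium channel subunit with 2 regions, which fell by 1.93 ± 0.29 to P7 (adjusted p = 0.000746), Slc8a1, the sodium-calcium exchanger, which fell by 3.12 ± 0.22 (adjusted p = 2.61e-05), and Kcnq1, a potassium channel, which fell by 3.02 ± 0.34 (adjusted p = 0.00018).

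Of 24 tested cardiac transcription factor genes, 12 were called lower and 0 higher at P7, and 2 were nearest to a member. Myocd, the coactivator of serum response factor, fell by 1.95 ± 0.19 to P7 (adjusted p = 9.57e-05), with FPKM of 6.91 and 5.71 at E18.5, then 5.77 and 7.5 at P1 and 1.10 and 0.701 at P7. Tead1, a TEAD factor, had 2.28 and 9.90 at E18.5 and 3.47 and 3.31 at P7, which overlapped. Of 12 AP1 genes, 5 were called lower and 1 higher at P7, and Fosb alone was nearest to a member.

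Of 12 metabolic regulators and creatine genes, 7 were called lower and 1 higher at P7. Ppargc1a, the coactivator of mitochondrial biogenesis, fell by 2.82 ± 0.27 to P7 (adjusted p = 8.36e-05), and Ckmt2, mitochondrial creatine kinase, by 3.85 ± 0.52 (adjusted p = 0.000459). Ppara, the fatty acid sensing receptor, did not reach the fold limit at -0.89 ± 0.20 (adjusted p = 0.00616), and Slc6a8, the creatine transporter, was at -0.32 ± 0.17 (adjusted p = 0.155). In glycolysis, 7 of 21 genes were called lower and 3 higher at P7, and the member's gene Hk1, hexokinase, had FPKM of 43.2 and 70.6 at E18.5 and 33.9 and 55.8 at P7, with overlap. In fatty acid oxidation, 18 of 21 tested genes were called lower and 1 higher, and none was nearest to a member.

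Of 16 tested fetal growth and imprinted genes, 8 were called lower and 2 higher at P7, and 5 were nearest to a member. Besides Igf2, Mest fell by 2.70 ± 0.26 to P7 (adjusted p = 8.94e-05), and Igf2r, the receptor that clears Igf2, by 1.28 ± 0.17 (adjusted p = 0.000373). Cdkn1c, a cell cycle inhibitor, fell by 2.09 ± 0.28 (adjusted p = 0.000456), with FPKM of 40.7 and 45.9 at E18.5 and 11.7 and 7.45 at P7, and was the single gene of the 28 in the cell cycle list near a member, where 1 was called lower and 9 higher at P7. Igf2bp1, which binds Igf2 RNA, had 5.25 and 3.00 at E18.5 and 4.24 and 3.99 at P7, within the same range. Of 14 extracellular matrix genes, 0 were called lower and 13 higher at P7, and the collagen genes Col4a2 (1.35 ± 0.23, adjusted p = 0.00155) and Col5a1 (2.59 ± 0.18, adjusted p = 2.29e-05) were nearest to a member. The lists of class IIa histone deacetylases (2 of 4 lower at P7) and thyroid and glucocorticoid genes (3 of 6 tested lower) had no gene nearest to a member.

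The 8 members with the best E18.5 ranks were not those with the largest expression changes. The regions nearest to Osbp2 (ranks 1561 and 2805), Akt2 (2157 and 3183), Cspg4b (3103 and 2434), Chst8 (4016 and 1660), Rpl19 (2460 and 3355), Ywhaz (1671 and 4389), Eif2ak3 (5064 and 1780) and Mid1 (3926 and 3151) led the order of summed rank. Of these genes, Akt2, Rpl19, Ywhaz, Eif2ak3 and Mid1 were tested and none was called at P1, P3 or P7. Rpl19, a ribosomal protein gene, had the largest change at P7 among them at 0.51 ± 0.13 (adjusted p = 0.0104), below the fold limit, and its region carried a MEF2 match and had a peak in all 6 neonatal lists.

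Osbp2 and Chst8 had too little RNA to be tested. The former, an oxysterol-binding protein, had FPKM of 0.754 and 1.18 at E18.5 and 0.0942 to 0.339 in the neonatal libraries, and the latter, a sulfotransferase, 0.975 and 0.640 at E18.5 and 0.0468 to 0.148 after birth. Both had lower values in every neonatal library than in either E18.5 library. Cspg4b was not matched to the RNA-seq annotation. Cfap20, a ciliary protein gene, had an intronic member (chr8:95426843-95427249) and was at -0.61 ± 0.14 at P7 (adjusted p = 0.00595), with FPKM of 41.3 and 52.0 at E18.5 and 28.8 to 30.1 in the neonatal libraries. Its peak ranked 7262 and 9910 at E18.5 and between 16180 and 37159 in the 5 neonatal lists that held it.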

How the data were processed

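Mouse ATAC-seq peaks and RNA-seq transcript tables were analysed, and the 6 rat and 6 HiChIP libraries were not used here. The members and gene lists were chosen with earlier results of these data known.

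The authors trimmed ATAC-seq reads with cutadapt, aligned them to mm10 with Bowtie2, removed duplicates with Picard and called peaks per library with MACS2. The deposited score, fold enrichment (a ratio), −log10 p and −log10 q are those of the caller, by the authors. The authors aligned RNA-seq reads with HISAT2 2.1.0 and obtained FPKM with StringTie 1.3.5 on GENCODE vM21, and the deposited FPKM and TPM were used. Depth was estimated at 29.3 to 37.5 M aligned reads per RNA-seq library, from the deposited coverage and FPKM with a read length of 150 bp. ATAC-seq depth is not given in the sources used here.

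Regions were assigned to the nearest RefSeq GRCm38.p6 protein-coding start site. Gene names were matched by symbol (571) or Entrez ID (16), and 8 were not matched. FPKM was summed per gene, genes with FPKM of at least 1 in 2 libraries were kept (13979), and log2(FPKM + 1) was compared with limma 3.58.1 (trend, two-sided, R 4.3.3), all 8 libraries in 1 fit, with Benjamini-Hochberg adjustment. The script was tested on simulated data. Intervals cover counting error only. Motifs were searched in Python 3.11.15, leaving out 136 regions on unplaced scaffolds.

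Named genes are those of the 8 members with the best summed E18.5 rank, the 8 largest falls and 6 largest rises at P7 and the 4 of each at P1 among called genes whose libraries do not overlap, genes with at least 3 members, genes of the lists nearest to a member, genes named by the study where nearest to a member, and regions at the limit. Alternatives were other numbers of peaks, ranking, merging, promoter limits, pseudocounts, filters, scalings, a replicate block and each library left out.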

Additional observations from a re-analysis of the deposited data

How the results depend on the processing

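The members depended on how many peaks were kept. Keeping 6574 peaks per library gave 315 members, 37 of them shared with the 613, with a promoter share of 79.7% and 0 without a neonatal peak. With 10000 peaks there were 461 (224 shared), 66.8% and 3. All deposited peaks gave 23 members (19 shared), of which 17.4% were promoters. Ranking by fold enrichment gave 797, of which 487 were shared. Leaving out each library gave 626 to 2930 members, 19 to 1141 without a neonatal peak and a promoter share of 26.5% to 71.3%. Without E18.5 replicate 1 there were 2930 members, 1141 without a neonatal peak and 26.5% promoters, without E18.5 replicate 2 there were 2293 and 195, and without P7 replicate 2 there were 1007 and 29. Without P1 replicate 1 or P3 replicate 1, 34 and 32 had no neonatal peak.

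With TPM, the genes called higher were 89, 101 and 98 at P1, P3 and P7. Counting promoter members alone gave 19, 30 and 48 lower and 33, 34 and 38 higher at P1, P3 and P7, and members at 2.5 to 50 kb 12, 18 and 31 lower and 11, 13 and 12 higher, both with fewer genes by construction. Leaving out each library gave 32 to 51 lower and 47 to 67 higher at P1, 54 to 59 and 52 to 70 at P3, with 85 to 97 and 59 to 72 at P7. With a replicate block, lower and higher calls were 38 and 54 for P1, 58 and 58 for P3, then 91 and 62 for P7. The labels do not say whether replicate numbers pair the libraries. Replicate differences correlated at -0.096 to 0.171 between time points, which cannot settle this, since pairing with small shared effects would also give low values. Of 39 named fold changes, 38 were called under every alternative, 0 reversed, and Col4a2 was at 0.99 without E18.5 replicate 2. Motif windows of 200 bp gave 11.2% for MEF2, 10.4% for AP1, 35.9% for GATA and 17.5% for the half-site at members away from promoters. Such regions kept in both E18.5 and at least 1 neonatal library had 3.55%, 15.5%, 20.7% and 13.6%. List lengths and 2 libraries per time point limit these values.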
